A study of Capra hircus with 12 samples.

Results

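The comparison set the 6 libraries of secondary hair follicles taken while days shorten (September, November and December) against the 6 taken while days lengthen (February, March and May), by the month in each sample's label, so all 12 of the 12 libraries in the study entered it. Secondary follicles are the fine follicles of goat skin that make cashmere, and total RNA from them was sequenced. Every goat was labelled 1.5 years old, and each month held 1 female (replicate 1) and 1 male (replicate 2). The growth stage was anagen in May and September, catagen in November and December, and telogen in February and March. No treatment, breed or housing was given in the labels, and whether the same goats were sampled in several months was not given either. Catagen was sampled only in shortening days and telogen only in lengthening days, so season and stage cannot be told apart except through the anagen months. The genes of interest are therefore those for which May, although in anagen, sided with the telogen months, and September sided with the catagen months.

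Cashmere follicles run through a yearly cycle of growth (anagen), regression (catagen) and rest (telogen). In goats and other seasonal mammals, day length is read through the night-time release of melatonin, which sets the pituitary's release of prolactin, low under short days and high under long days. Follicle cells carry the prolactin receptor and a circadian clock built from activators (CLOCK, ARNTL) and repressors (the PER and CRY genes, NR1D1), and moulting and regrowth of the winter coat follow the season.

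Hair shaft keratin transcripts marked the libraries as hair follicle, with a summed value over the 8 measured shaft keratins of 977 to 1499 in shortening days and 333 to 1226 in lengthening days (exact permutation test of 6 against 6, two-sided, p = 0.0541). Expression was given as TPM, a level corrected for transcript length and scaled within each library, and the libraries summed to 904623 to 1127797 rather than to a common total. Read depth is unknown. Cytosolic ribosomal protein genes took 20.6% to 24.8% of the summed values in shortening days (22.9% ± 1.94, SD, n = 6) and 12.4% to 18.5% in lengthening days (15.8% ± 2.54, SD, n = 6), with no overlap (exact permutation p = 0.00216, the smallest that 6 against 6 can give). The share of the mitochondrial genome was 1.82% to 3.51% against 1.53% to 11.8% (exact p = 0.0996). With 3 months a season, an exact test over months cannot fall below 0.1.

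Of 16095 genes that reached 1 TPM in at least 2 libraries, 1420 (8.82%) differed between the seasons in limma's moderated test on log2(TPM + 1) at a Benjamini-Hochberg adjusted p under 0.05. Without adjustment 5068 genes (31.5%) had a p under 0.05. Of the 1420, 553 (3.44%) were higher in shortening days and 867 (5.39%) in lengthening days. For 850 genes (5.28%; 315, or 1.96%, and 535, or 3.32%) all 6 libraries of one season lay above all 6 of the other, and 731 of them (4.54%) also passed the test. These 731 are called here genes siding with season: 267 (1.66%) were higher in shortening days and 464 (2.88%) in lengthening days. Fold changes below are on the log2(TPM + 1) scale, which understates the change of low genes, and in bulk tissue fewer cells of a type and less RNA per cell cannot be told apart. The count rests on treating the 12 libraries as independent. With the 3 month means of each season as the units, or with the month as a random block (correlation between libraries of a month 0.414), 3 genes passed. Leaving out a single library gave from 33 (without November replicate 1) to 4068 genes (without May replicate 1).

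The 3 genes that passed with months as units also passed under each of 26 alternative settings, and all 3 carry only a locus number. LOC102168680 stood at 65.4 and 66.7 TPM in the September female and male, 42.6 and 28.5 in November, and 95.3 and 84.7 in December. Its values in lengthening days were 1.54 and 0.76 in February, 0.46 and 0.47 in March, and 0.74 and 0.31 in May. May, although in anagen, lay with telogen, and September lay between the 2 catagen months, so the lowest shortening-day library was many times the highest lengthening-day one. The difference was 5.17 ± 0.26 (SE) between seasons (adjusted p = 3.2e-07), 5.02 between catagen and telogen (adjusted p = 5.14e-07) and 5.47 ± 0.23 between September and May (adjusted p = 6.6e-06). With month means as units the seasonal difference had an adjusted p of 0.0157.

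LOC102176710 had the same arrangement. It stood at 56.1 and 54.8 TPM in September, 56.5 and 56.5 in November, and 97.3 and 61.2 in December, in female and male order. In lengthening days it stood at 1.09 and 0.67 in February, 0.80 and 2.20 in March, and 0.91 and 1.66 in May. The seasonal difference was 4.87 ± 0.18 (adjusted p = 1.06e-08; 0.000478 with month means), and September exceeded May by 4.65 ± 0.29 (adjusted p = 8.67e-05). LOC102186914 showed a smaller step. It stood at 18.2 and 18.0 in September, 28.8 and 21.6 in November, and 25.7 and 24.4 in December, against 5.13 and 4.98 in February, 2.06 and 7.23 in March, and 4.52 and 3.45 in May. Its seasonal difference was 2.14 ± 0.21 (adjusted p = 0.000517; 0.0278 with month means). Between September and May it was 1.95 ± 0.36, which missed the threshold over all genes (adjusted p = 0.105).

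**Figure D1:**
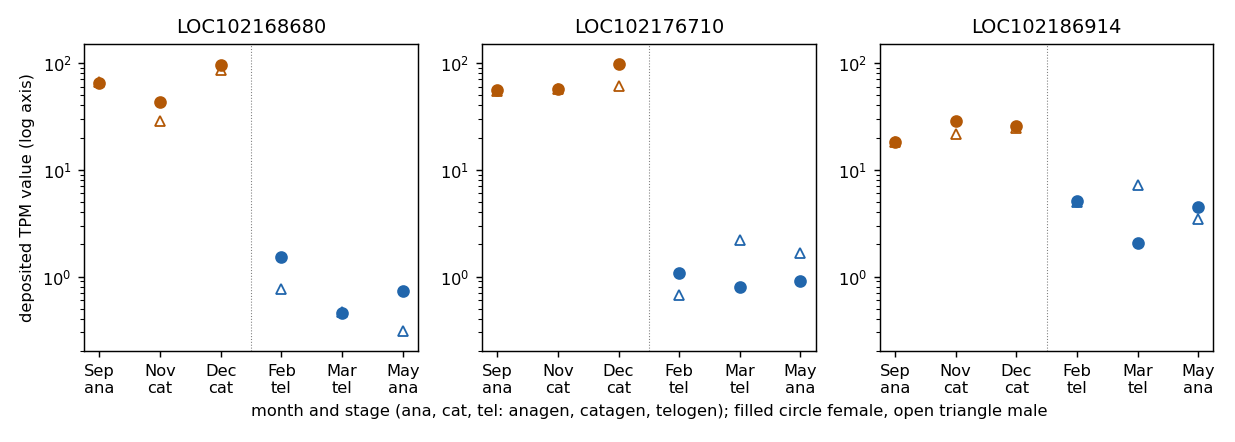
TPM (log axis) of LOC102168680, LOC102176710 and LOC102186914 in each library, by month and stage (3 months of shortening days left of the dotted line, 3 of lengthening days right of it; filled circles female, open triangles male). In each panel all 6 shortening-day libraries sit above all 6 lengthening-day libraries, and May sits with February and March.

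In the order of genes of the RefSeq goat assembly ARS1.2, LOC102168680 lies beside HBM, a haemoglobin gene, and LOC102176710 lies a few genes from HBBC, a beta-type haemoglobin gene, while LOC102186914 lies by KLHDC8A. Of the neighbours, HBM and HBBC did not share the pattern, and LOC102168959 shared it only in part. HBM reached at most 2.42 TPM and HBBC at most 1.52, with groups that overlapped (seasonal adjusted p = 0.289 and 0.65). LOC102168959, next to LOC102168680, was listed at 0 in both September libraries and in the December male, and stood at 23.8 and 37.0 in November and 25.3 in the December female, against 0.22 to 1.50 in lengthening days. The red cell markers with a value were SLC4A1 (0.93 to 5.48 over all libraries), the haem synthesis enzyme ALAS2 (0.14 to 1.10, under the filter) and AHSP, a haemoglobin chaperone. AHSP stood at 38.0 to 54.4 in shortening days and 46.4 to 81.3 in lengthening days, a difference of -0.41 (adjusted p = 0.0757), the opposite sign to the 3 locus genes. What these loci encode was not established here.

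Whether the seasonal genes follow season or only the catagen-telogen step was asked by setting 2 contrasts side by side that share no library, from 1 fit with a common estimate of the spread. Catagen (November and December) minus telogen (February and March) differed in 6843 genes (42.5%), 3055 higher (19.0%) and 3788 lower (23.5%), and 8408 (52.2%) had an unadjusted p under 0.05. After quantile normalization the split turned to 3165 higher and 3014 lower. September minus May, both anagen, differed in 22 genes (0.137%), 5 higher (0.0311%) and 17 lower (0.106%), although 1572 genes (9.77%) had an unadjusted p under 0.05. Of the 6843 genes, 9 also passed between September and May in the same direction (0.132%, beside 0.137% of all genes) and 0 in the opposite direction (244 at an unadjusted p under 0.05, against 338 in the same direction). The 9 were LOC102168680, LOC102176710 and DES, higher in catagen and in September, and MB, MYLPF, TNNC2, TTN, MYL1 and CSRP3, higher in telogen and in May. The sign was shared by 3639 of the 6843 genes (53.2%). With each contrast fitted on its own libraries alone, 6320 genes were called between catagen and telogen and 6 of them passed between September and May in the same direction. The 9 became 4 without May replicate 2 or December replicate 1 and 5 without September replicate 1 or December replicate 2, and 4 after quantile normalization.

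Each month was then placed by which side of the midpoint between the catagen and telogen means its own mean fell. For 5686 of the 6843 genes (83.1%) both May and September fell on the catagen side. The seasonal arrangement, May with telogen and September with catagen, held for 856 genes (12.5%), and its mirror image for 134 (1.96%). Both months lay on the telogen side for 167 (2.44%). Among genes higher in catagen the seasonal arrangement held for 356 of 3055 (11.7%), and among genes higher in telogen for 500 of 3788 (13.2%). Among the 9252 genes not called between catagen and telogen, it held for 1635 (17.7%) and the mirror image for 858 (9.27%). The 856 became 473 without November replicate 1 and 524 without December replicate 2. The 134 became 62 and 57 without those libraries, 80 and 83 without February replicate 1 and 2, 252 without September replicate 1, 79 after quantile normalization and 256 without the filter.

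**Figure D2:**
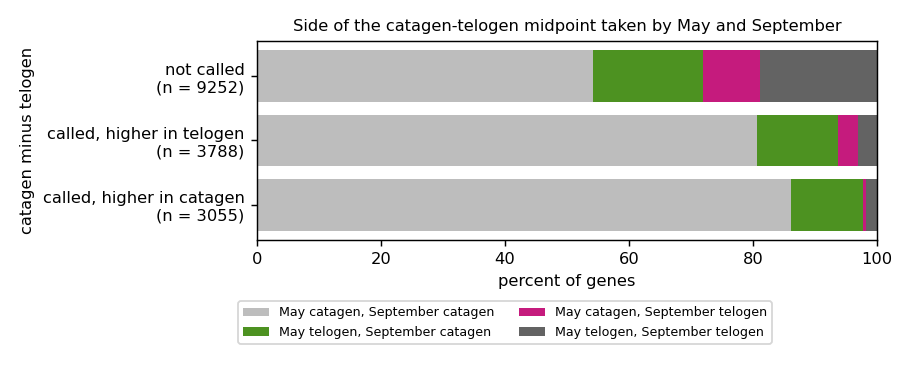
Percent of genes by the side of the catagen-telogen midpoint on which May and September fell, for genes called higher in catagen (n = 3055), called higher in telogen (n = 3788) and not called (n = 9252). The seasonal arrangement (green) covers 11.7%, 13.2% and 17.7%, and both anagen months lie with catagen for most called genes.

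Among the 731 genes siding with season, 717 also passed between catagen and telogen, a contrast that uses 8 of the same 12 libraries. Only 5 passed between September and May as well: LOC102168680 and LOC102176710 (higher in shortening days) and MB, TTN and CSRP3 (higher in lengthening days). An unadjusted September-May p under 0.05 was found for 211 of the 731, beside 9.77% of all genes, and a raised share is fixed by choosing genes whose September and May libraries do not overlap. The 267 genes higher in shortening days were abundant, with a median level of 56.0 TPM (quartiles 23.1 and 142) beside 14.1 over all genes tested. Their median differences were 0.58 between seasons, 0.66 between catagen and telogen and 0.40 between September and May. The 464 genes higher in lengthening days had a median level of 12.4 TPM (quartiles 5.16 and 25.5) and median differences of -0.51, -0.62 and -0.28. Over all genes tested the medians were -0.04, -0.07 and -0.003. The way the genes were chosen fixes the sign of these differences and raises their size, so the medians are descriptions. The seasonal step was small for most: 27 of the 267 and 6 of the 464 reached 2-fold.

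**Figure D3:**
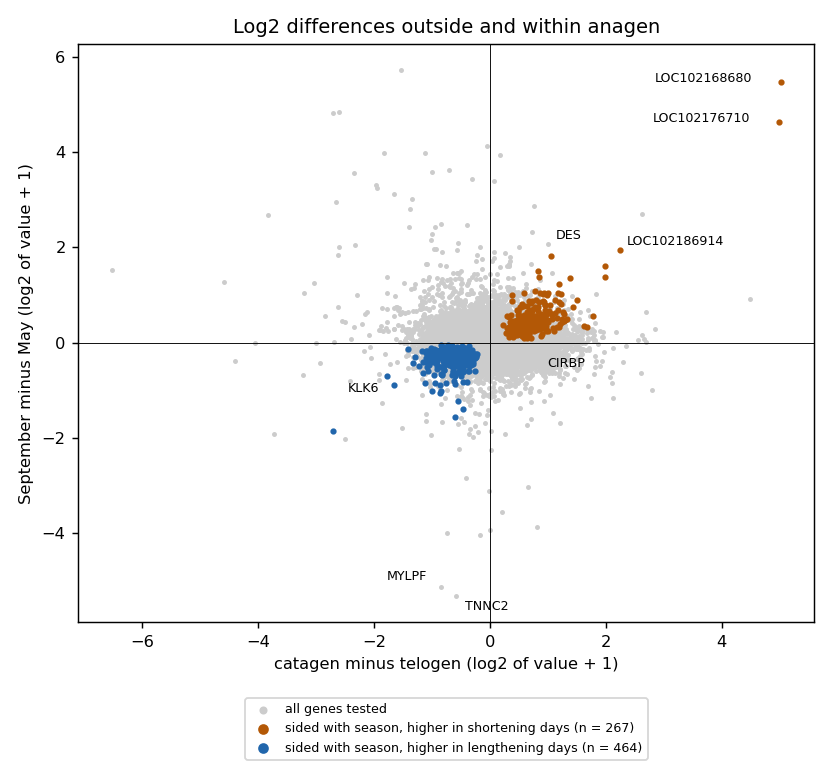
Log2 difference between catagen and telogen (x axis) against that between September and May (y axis) for 16095 genes, with the 267 genes siding with shortening days (orange) and the 464 siding with lengthening days (blue). LOC102168680 and LOC102176710 stand far out on both axes. The muscle genes MYLPF and TNNC2 lie low on the September-May axis (-5.14 and -5.33) and less so on the catagen-telogen axis (-0.85 and -0.58).

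The genes described next are the 12 in each direction with the largest September-May and catagen-telogen differences of the same sign, among named genes siding with season with a mean of at least 5 TPM. All had the stated direction in each alternative tried. None kept an adjusted p under 0.05 in every one: the number of 26 in which a gene kept it ran from 10 (RPS29) to 22 (MIF, NREP and NEB), and all 24 lost it with month means or the month block. Of the single libraries, November replicate 1 cost 14 of the 24 genes the call when left out, September replicate 2 and February replicate 1 cost 10 each, November replicate 2 cost 4, December replicate 2 cost 2, and September replicate 1 and December replicate 1 cost 1 each.

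Of the 12 genes higher in shortening days, RPS29, a protein of the small ribosomal subunit, ranged from 22482 to 37345 TPM (median 34200.0) in shortening days and from 10193 to 19076 (median 12999.7) in lengthening days, a difference of 1.20 ± 0.30 (adjusted p = 0.0346). MRPL57, of the mitochondrial ribosome, stood at 135 to 203 (median 166) against 37.7 to 101 (median 71.2), a difference of 1.30 ± 0.21 (adjusted p = 0.0185). Neither gene's seasonal groups overlapped. ATP5E, the epsilon subunit of ATP synthase, stood at 1645 to 2529 (median 2046) against 743 to 1452 (median 930.1), a difference of 1.02 ± 0.19 (adjusted p = 0.0203). NDUFA11, an accessory subunit of respiratory complex I, stood at 141 to 221 (median 174) against 68.1 to 124 (median 93.8; difference 0.91 ± 0.16, adjusted p = 0.0198). POLR2L, a small subunit shared by the nuclear RNA polymerases, stood at 368 to 472 (median 389) against 174 to 280.2 (median 211; difference 0.90 ± 0.13, adjusted p = 0.014). PSMG4, a chaperone of proteasome assembly, differed by 0.97 ± 0.18 (adjusted p = 0.0203), with 342 to 517 against 150.4 to 306 TPM. For each of these, the shortening-day libraries lay above all of the lengthening-day ones, which the choice of genes siding with season requires.

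Also higher in shortening days was MIF, a secreted cytokine. It stood at 437 to 569 TPM (median 480.4) in shortening days and 175 to 287 (median 232) in lengthening days, a difference of 1.08 ± 0.14 (adjusted p = 0.00746). The 2 May libraries were at 286 and 287 and September at 477 and 569, a September-May difference of 0.86 ± 0.16 that missed the threshold (adjusted p = 0.111). ID3, an inhibitor of helix-loop-helix transcription factors and a classic target of bone morphogenetic protein (BMP) signalling, stood at 194 to 321 (median 241) against 69.9 to 152 (median 109), a difference of 1.16 ± 0.18 (adjusted p = 0.015). Its relative ID1 stood at 125 to 196 against 67.5 to 116 and also sided with season (0.72 ± 0.15, adjusted p = 0.0244). ID3 and ID1 were the 2 genes that passed of 29 tested in a list of BMP and TGF-beta signalling, a share of 6.90% beside 8.82% of all genes. The list's median seasonal difference was 0.06. S-LZ stood at 10.1 to 14.7 (median 13.0) against 1.49 to 7.55 (median 2.76), the largest step of the 12 (1.79 ± 0.25, adjusted p = 0.01). WFDC1, a secreted protein with a protease inhibitor domain, was 40.3 to 78.6 against 26.0 to 38.9 (0.95 ± 0.16, adjusted p = 0.0198). MYOC, myocilin, a secreted glycoprotein, was 23.5 to 53.6 against 12.7 to 21.7 (1.02 ± 0.20, adjusted p = 0.0233). LMOD1, which nucleates actin filaments in smooth muscle, was 11.6 to 18.3 against 5.79 to 9.97 (0.85 ± 0.13, adjusted p = 0.015).

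Of the 12 genes higher in lengthening days, KLK6, a secreted kallikrein protease, stood at 8.68 to 25.2 TPM (median 13.6) in shortening days and 31.9 to 69.2 (median 35.0) in lengthening days, a difference of -1.41 ± 0.26 (adjusted p = 0.0198). Its September libraries, at 25.2 and 21.1, were the highest of the shortening season. KPRP, a proline-rich protein of keratinocytes, stood at 24.4 to 35.8 against 38.9 to 63.3 (-0.63 ± 0.13, adjusted p = 0.0244). PNPLA5, a lipase of the patatin-like family, stood at 5.62 to 10.1 against 10.98 to 17.2 (-0.92 ± 0.14, adjusted p = 0.015), and the May male, at 17.2, was the highest of the 12 libraries. SLC16A6, a monocarboxylate transporter, stood at 5.21 to 8.35 against 9.83 to 17.1 (-0.79 ± 0.14, adjusted p = 0.0202). The transporter of noradrenaline, SLC6A2, stood at 2.88 to 4.95 against 6.50 to 12.2 (-0.89 ± 0.15, adjusted p = 0.0198).

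The remaining genes of that direction act inside the cell. NREP stood at 8.96 to 12.5 TPM (median 10.4) against 15.4 to 23.1 (median 18.4), a difference of -0.78 ± 0.11 (adjusted p = 0.01). CDC25B, a phosphatase that activates cyclin-dependent kinases, was tightly grouped in shortening days, at 9.61 to 11.0, against 13.9 to 19.4 (-0.63 ± 0.09, adjusted p = 0.0138). PCGF2, of a Polycomb repressive complex, differed by -0.77 ± 0.17 (adjusted p = 0.0251), and VPS25, of an endosomal sorting complex, by -0.74 ± 0.15 (adjusted p = 0.0237). VPS25 spanned only 24.8 to 28.3 in shortening days but 34.0 to 65.8 in lengthening days, where February and the March female were higher than May. CPPED1, a phosphatase, and ZNF394, a zinc finger protein, differed by -0.66 ± 0.14 and -0.60 ± 0.09 (adjusted p = 0.0237 and 0.0138). NEB, nebulin, the ruler protein of the thin filament of muscle, stood at 7.11 to 10 against 12.5 to 17.4 (-0.79 ± 0.10, adjusted p = 0.00746).

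**Figure D4:**
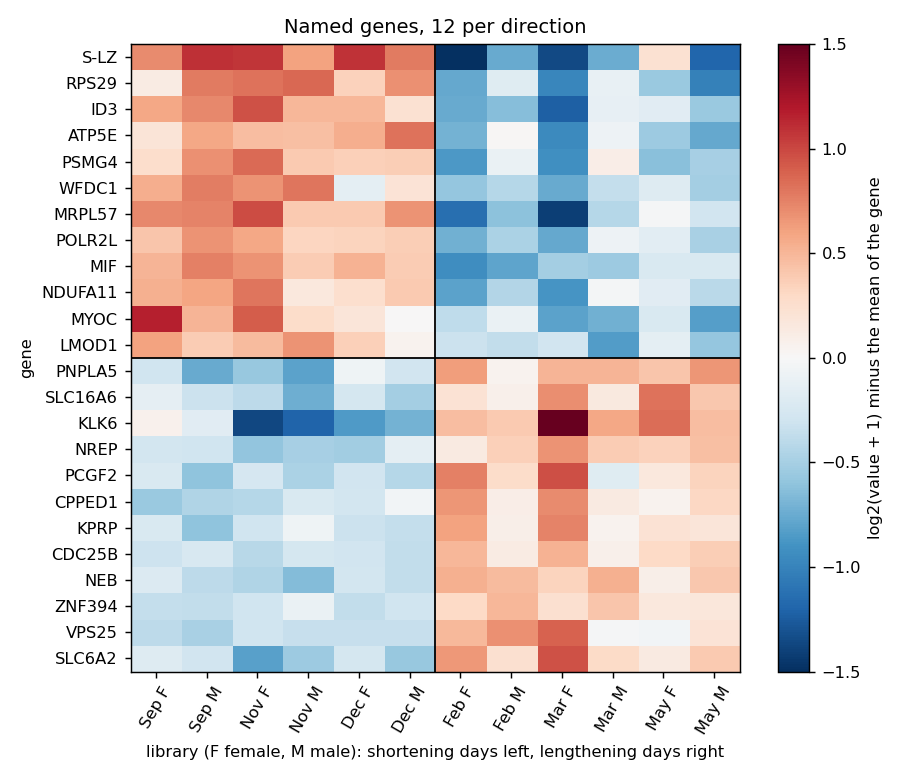
Log2(TPM + 1) of the 24 named genes in each library, minus the gene's mean over the 12 libraries (colour scale, log2 units), with the 6 shortening-day libraries left of the line and the 6 lengthening-day libraries right of it. Within a season the libraries differ in depth of colour, as for KLK6, whose September libraries are paler than those of November.

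PRLR, the prolactin receptor, stood at 44.3 to 62.3 TPM (median 52.6) in shortening days and 57.7 to 123 (median 79.7) in lengthening days. The groups overlapped: the May female, at 57.7, lay inside the shortening-day range and the May male, at 62.9, just above it, while February and March were higher. PRLR passed between seasons (-0.65 ± 0.18, adjusted p = 0.0446) but kept the call in 6 of 26 alternatives, and was lost when any 1 library outside May was left out. September minus May was -0.36 ± 0.24 (adjusted p = 0.647). SOCS1, a feedback inhibitor of cytokine signalling, was the other of 11 genes tested in the prolactin receptor and JAK-STAT5 list that passed (18.2% called, beside 8.82% of all genes). It sided with shortening days at 2.29 to 3.63 against 1.40 to 2.24 (0.46 ± 0.11, adjusted p = 0.0325). In limma 0 of the 8 melatonin, opsin and photoperiod genes tested passed between seasons (1 at an unadjusted p under 0.05). Between catagen and telogen 3 were lower in catagen (37.5% called, beside 42.5% of all genes). The melatonin receptor gene MTNR1A was at 0 to 0.97 TPM and under the filter.

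Of 14 core clock genes, 0 were higher (0 also at an unadjusted p under 0.05) and 3 lower in shortening days (8 unadjusted), and 1 sided with season. The 3 are 21.4% of the list, beside 8.82% of all genes called and 5.39% called lower. Their number fell to 0 without September replicate 2, November replicate 1, November replicate 2 or February replicate 1, and to 0 with months as units. It was 1 without September replicate 1, either December library, February replicate 2 or March replicate 2, and without the filter. PER3, a clock repressor, stood at 5.72 to 7.07 TPM (median 6.72) in shortening days against 7.30 to 13.3 (median 10.4) in lengthening days, a difference of -0.56 ± 0.12 (adjusted p = 0.0244). The nearest libraries were the December female at 7.07 and the May female at 7.30, and September minus May was -0.26 (adjusted p = 0.653). It kept the call in 15 of 26 alternatives, and lost it without September replicate 2, November replicate 1, November replicate 2 or February replicate 1. NR1D1, a nuclear receptor that represses ARNTL, passed (-0.55 ± 0.16, adjusted p = 0.0446) with ranges of 5.91 to 11.7 and 9.89 to 18.0 that overlapped, and RORA, its activating counterpart, passed (-0.56 ± 0.16, adjusted p = 0.0469) at 57.0 to 74.5 against 66.4 to 137. NR1D1 kept the call in 6 of 26 alternatives. The other clock genes reported did not pass: ARNTL was at -0.28 (adjusted p = 0.0782), CRY1 at -0.32 (0.0943), CLOCK at -0.16 (0.562), PER1 at 0.20 (0.427), PER2 at -0.07 (0.708), CRY2 at 0.22 (0.357) and NR1D2 at -0.21 (0.283). The hour of sampling was not given.

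Among 14 clock output and loop regulators 0 passed between seasons in limma (0 higher and 6 lower at an unadjusted p under 0.05). Between catagen and telogen 2 were higher and 7 lower in catagen (64.3% called, beside 42.5% of all genes). CIART stood at 41.3 and 35.1 TPM on average in February and March but at 23.7 in May, beside 22.1 in September. BHLHE40 followed the same course, with means of 51.8, 50.5, 25.6 and 27.5 in those 4 months, and HLF stood at 27.1, 24.3, 14.0 and 14.2. For these 3 genes May lay with September and not with telogen. Their seasonal differences were -0.62, -0.64 and -0.49 (adjusted p = 0.0773, 0.0716 and 0.109) and their September-May differences -0.04, 0.09 and 0.02. DBP was at -0.35 between seasons (adjusted p = 0.0594), TEF at 0.11 (0.634) and NFIL3 at 0.32 (0.185).

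Genes of the thyroid axis, which relays day length in the brain, did not pass in limma (0 of 13, with 2 higher and 4 lower at an unadjusted p under 0.05). DIO2, which activates thyroid hormone, stood at 20.3 to 27.9 TPM in shortening days and 21.9 to 31.3 in lengthening days (-0.22, adjusted p = 0.178). DIO3, which inactivates it, stood at 14.3 to 23.8 against 1.36 to 18.7 (1.08 ± 0.41, adjusted p = 0.0978), with the lowest value in the March female. THRA and VDR, receptors of thyroid hormone and vitamin D, were at 0.13 and -0.002 (adjusted p = 0.41 and 0.992). In the steroid and vitamin D list 0 of 14 passed between seasons (9 lower at an unadjusted p under 0.05). Between catagen and telogen 8 were lower in catagen (57.1% called, beside 42.5% of all genes).

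The cold-inducible genes CIRBP and RBM3 were highest in May. CIRBP, a cold-inducible RNA-binding protein, stood at 86.2 and 68.8 TPM in September, 88.2 and 62.0 in November, 53.6 and 63.8 in December, 30.7 and 33.3 in February, 35.3 and 43.7 in March, and 106 and 133 in May. Telogen was lowest. Catagen exceeded telogen by 0.87 ± 0.14 (adjusted p = 0.00235), September minus May was -0.62 ± 0.20 (adjusted p = 0.401), and the difference between those differences was 1.49 (adjusted p = 0.0257 over all genes). RBM3, its relative, had the same order, with May at 263 and 365, telogen at 63.8 to 157 and the shortening days at 161 to 259. Neither passed between seasons (0.38 and 0.66, adjusted p = 0.455 and 0.239). Of 12 temperature genes 8.33% passed, beside 8.82% of all genes. The 1 that passed was TRPM8, the cold-sensing channel (-0.71 ± 0.20, adjusted p = 0.0424). Its May mean of 6.89 was close to September's 6.66 and below the 14.1 and 12.5 of February and March, so it did not side with season.

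Among follicle structure lists, in limma 0 of 8 hair shaft keratins passed (4 higher at an unadjusted p under 0.05). The same held for 12 inner root sheath genes (1 higher and 1 lower unadjusted), 3 keratin-associated proteins (0 unadjusted), 19 dermal papilla genes (2 and 1), 20 FGF genes (3 and 1) and 17 Notch genes (3 and 0). Of 20 bulge and hair germ genes 2 passed (10%, beside 8.82% of all genes): ITGB1, an integrin of basal cells, sided with shortening days at 182 to 204 TPM against 112 to 181 (0.49 ± 0.12, adjusted p = 0.0311), the groups all but touching. LHX2, a stem cell transcription factor, was lower at 26.7 to 36.3 against 36.2 to 64.5 (-0.56 ± 0.13, adjusted p = 0.031). MSX1 (0.54, adjusted p = 0.0458, siding) and SELENBP1 (1.00, adjusted p = 0.0487) were higher among 17 hair matrix regulators (11.8% called, beside 8.82% of all genes). Of 41 Wnt genes, WNT3 and TCF7 were lower in shortening days (-0.43 and -0.44), 4.88% of the list beside 8.82% of all genes. Of 15 hedgehog genes DHH, GLI3 and SUFU were lower (-0.73, -0.49 and -0.40, 20% called, beside 8.82% of all genes). None of these 5 sided with season. DHH averaged 15.3 and 14.6 TPM in February and March and 7.74 in May beside 7.30 in September, again a telogen level more than a lengthening-day level.

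The IGF list of 16 had 12.5% called, beside 8.82% of all genes. IRS2, an adaptor of insulin signalling, was higher (0.48, adjusted p = 0.0352) and IGFBP3, an IGF-binding protein, lower in shortening days (-0.64, adjusted p = 0.0386). Of 30 cell division genes, 6.67% were called and 6.67% sided with season, beside 8.82% and 4.54% of all genes. CDK1, the mitotic kinase, and PCNA, the replication clamp, sided with shortening days, at 0.51 and 0.50 (adjusted p = 0.0367 and 0.0387). PCNA stood at 56.5 to 72.9 TPM against 32.2 to 54.2, and CDK1 at 19.9 to 27.5 against 11.98 to 19.3. IER2 was higher and EGR3 lower among 18 immediate early genes (11.1% called). KRT1 and KLK5, of the upper epidermis, were lower among 15 epidermal genes (-0.97 and -0.86, adjusted p = 0.0473 and 0.0251), 13.3% of that list. The lipid droplet proteins PLIN2 (of 19 sebaceous genes, 5.26% called) and PLIN1 (of 10 adipocyte genes, 10% called) were lower (-0.51 and -0.44). The called shares of the immediate early, epidermal, sebaceous and adipocyte lists stood beside 8.82% of all genes. Of 20 cholesterol synthesis genes 0 passed in limma (7 higher and 1 lower at an unadjusted p under 0.05). All 13 transcripts of the mitochondrial genome were lower in catagen than telogen (median -1.84, 100% called, beside 42.5% of all genes). Between seasons 0 of them passed (2 lower unadjusted), and their median September-May difference was 0.43.

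**Figure D5:**
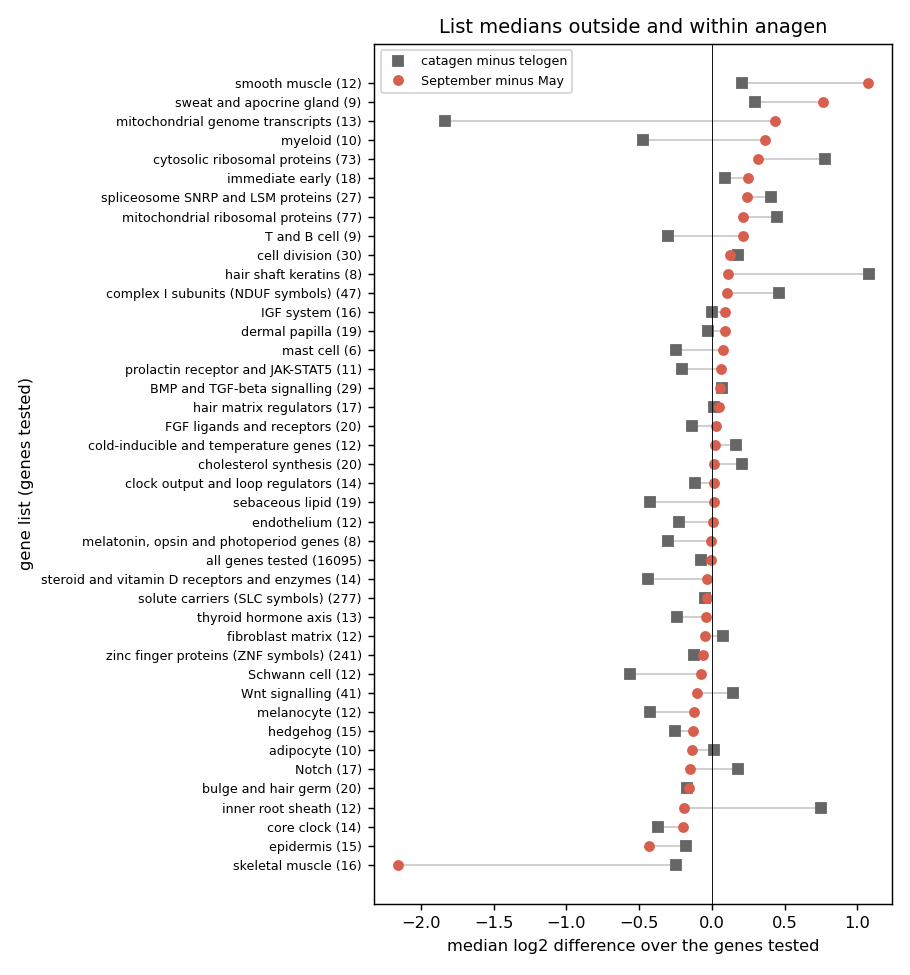
Median log2 difference over the tested members of each list with 6 or more tested and each name family (number tested in brackets), for catagen minus telogen (squares) and September minus May (circles). Within anagen smooth muscle genes lie farthest right (1.07) and skeletal muscle genes farthest left (-2.16), while between catagen and telogen hair shaft keratins lie farthest right and mitochondrial transcripts farthest left (-1.84).

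Among the genes that passed between September and May, the largest differences beside LOC102168680 and LOC102176710 lay in muscle genes. Of 16 skeletal muscle markers tested, 10 were lower and 1 higher in September (68.8% called, beside 0.137% of all genes). Their median was -2.16, beside -0.003 over all genes. Of these markers, TTN, MYL2 and ATP2A1 reached 1 TPM only in the May libraries. They met the filter only through the month where they were high, so the share and the median rest in part on that. TNNC2, a calcium-binding subunit of fast muscle troponin, stood at 71.4 and 67.0 TPM in May and at 0 to 1.50 in the other 10 libraries, a September-May difference of -5.33 ± 0.26 (adjusted p = 1.55e-05). MYLPF, a fast muscle myosin light chain, stood at 63.3 in both May libraries and at 0 to 1.82 elsewhere (-5.14 ± 0.26, adjusted p = 1.55e-05). The summed value of the markers was 334 and 327 in May and 54.2 to 171 elsewhere. That sum includes DES, which is also a smooth muscle marker. DES stood at 138 in the November male, where the sum was 171, and at 23.6 and 17.7 in May. The high values were May's alone, and neither TNNC2 nor MYLPF passed between shortening and lengthening days (adjusted p = 0.141 and 0.108). Of the 16 markers, 2 were higher and 3 lower in shortening days (31.25% called, beside 8.82% of all genes). MYBPC1, TTN and NEB of the list sided with season, higher in lengthening days (18.75%, beside 4.54% of all genes siding in either direction). NEB is described above. The low genes MB and CSRP3, which are not on the list, also sided with lengthening days. MB, myoglobin, was at 0 to 0.44 in shortening days, 0.54 to 1.12 in telogen and 2.62 and 3.22 in May (season -0.93 ± 0.25, adjusted p = 0.0409). TTN, titin, was at 0.15 to 0.35, 0.43 to 0.85, and 2.33 and 2.20 (-0.77 ± 0.21, adjusted p = 0.04), and CSRP3, a muscle LIM protein, at 0.81 to 1.29, 1.70 to 2.35, and 3.16 and 3.69 (-0.78 ± 0.13, adjusted p = 0.0198). MB, TTN and CSRP3 lost the September-May call when either May or either September library was left out. Their levels lay near the filter of 1 TPM. MB and TTN met that filter only through the May libraries, as MB reached 1 TPM elsewhere only in the February male. The part of muscle tissue in the May libraries in these differences was not tested.

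Smooth muscle markers ran the other way. Of 12, 4 were higher in shortening days and 0 lower (33.3% called, beside 8.82% of all genes), and 2 sided with season. Their medians were 0.58 between seasons, 0.20 between catagen and telogen and 1.07 between September and May. TAGLN, an actin-binding protein of smooth muscle, stood at 245 to 440.5 TPM against 142 to 208 (0.88 ± 0.16, adjusted p = 0.0198), LMOD1 is described above, and TPM2 passed with overlapping groups (0.65, adjusted p = 0.0456). DES, desmin, which is on both muscle lists, stood at 88.6 and 88.7 in September, 92.9 and 138 in November, 57.7 and 39.0 in December, 50.0 and 50.97 in February, 27.5 and 23.6 in March, and 23.6 and 17.7 in May. It passed between seasons (1.36 ± 0.31, adjusted p = 0.0289), and September exceeded May by 2.06 ± 0.23 (adjusted p = 0.00603). December overlapped February, so DES did not side with season. ACTA2, smooth muscle actin, was 234 and 222 in September against 103 and 79.7 in May (1.32 ± 0.15, adjusted p = 0.00932), with no catagen-telogen difference past the test (0.08, adjusted p = 0.596). DES and ACTA2 lost the September-May call without May replicate 2 or either September library. The summed smooth muscle markers were 1062 to 1758 in shortening days and 609 to 1304 in lengthening days (exact permutation p = 0.0325), and their part in the seasonal difference of LMOD1 and TAGLN was not tested.

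Fewer markers of other tissues passed between seasons. Of 9 sweat and apocrine gland genes 22.2% were called, beside 8.82% of all genes. The simple-epithelium keratins KRT8 and KRT19 were higher in shortening days (0.90 and 0.64, adjusted p = 0.0244 and 0.0465). KRT8 sided with season at 71.9 to 129 TPM against 38.4 to 62.0. Of 12 endothelial, 12 fibroblast, 10 myeloid, 9 T and B cell, 6 mast cell, 12 melanocyte, 12 Schwann cell and 2 erythrocyte genes tested, 0 passed in limma. At an unadjusted p under 0.05 there were 2, 3, 3, 2, 1, 3, 3 and 1. Between catagen and telogen the called share of these lists ran from 0% (fibroblast) to 58.3% (Schwann cell), beside 42.5% of all genes.

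Families of similar names were looked at after the values had been seen, so their counts are descriptions. Of 73 cytosolic ribosomal protein genes, 26 were higher and 0 lower in shortening days, and 18 (24.7%) sided with season, beside 4.54% of all genes. RPL22 stood at 1678 to 2609 TPM in shortening days and 578 to 1533 in lengthening days (1.23 ± 0.24, adjusted p = 0.0229), but its May libraries, at 1533 and 1335, were well above telogen at 578 to 832. The family's medians were 0.64 between seasons, 0.78 between catagen and telogen and 0.32 between September and May. At an unadjusted p under 0.05, 55 were higher and 0 lower. After quantile normalization 0 of the 73 passed in either direction. Rescaling without mitochondrial and ribosomal protein genes left 24 higher and 0 lower, and dropping the filter left 14 higher and 0 lower. The number higher was 0 without any 1 of September replicate 2, November replicate 1, November replicate 2 or February replicate 1. The share of ribosomal protein transcripts in each library, given above, moved with the season, and its part in these calls was not tested. Mitochondrial ribosomal proteins gave 18 higher and 0 lower of 77 (23.4% called, beside 8.82% of all genes), with 11 siding, and 15 higher after quantile normalization. Complex I subunits gave 9 higher and 0 lower of 47 (19.1% called, 31 and 0 unadjusted). Spliceosomal SNRP and LSM proteins gave 7 higher and 0 lower of 27 (25.9% called, 14 and 0 unadjusted).

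Zinc finger genes with ZNF symbols gave 4 higher and 18 lower of 241 tested, 2 and 15 of which sided with season. Solute carriers gave 6 higher and 19 lower of 277, with 3 and 11 siding. Their called shares, 9.13% and 9.03%, were near the 8.82% of all genes. With months as units none of these families held a gene that passed. Each also fell to 1 or 0 genes in either direction without November replicate 1 or February replicate 1, and to at most 2 without September replicate 2.

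Among genes with non-overlapping seasons, RPL11 was the last inside the threshold, at 3354 to 4615 TPM against 1878 to 3284 (0.62, adjusted p = 0.04998). KRT84, a hair keratin, was the first outside, at 107 to 143 against 23.7 to 102, with groups that did not overlap (0.98 ± 0.29, adjusted p = 0.0502). In all, 119 genes had non-overlapping seasons without passing the test.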

How the data were processed

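The authors' deposited tables give 1 value per gene and library in a column headed TPM. Per the submitters' processing notes, kallisto 0.46.1 and sleuth 0.30.0 were used, and the genome build is not given in the sources used here. As the library sums differed, the deposited values were treated as normalized signal of unknown depth, not as counts, and the tests planned for TPM were kept. Of 20326 genes, 20294 IDs matched RefSeq's ARS1.2 table, which was used for names and gene order only.

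The 16095 genes that reached 1 in 2 or more libraries were analysed as log2(value + 1) with limma 3.58.1 in R 4.3.3 (moderated variances with a mean trend, Benjamini-Hochberg over all genes). Season was a 6 against 6 fit, and the month contrasts came from a fit of all 6 months, which share 1 estimate of the spread. Nothing says which libraries came from separate goats across months, so p-values measure the spread between these libraries. Single values were compared by exact two-sided permutation. The named genes were ranked by the smaller of the catagen-telogen and September-May differences, 12 per direction. Beside them, PRLR, clock, thyroid and cold genes were always reported, and up to 4 members that passed are given from a list. The comparison, the gene lists and the families were chosen with earlier results of these data known. The fits were tested on simulated data. Alternatives were quantile normalization, rescaling without mitochondrial and ribosomal protein genes, no filter, a pseudocount of 0.1, a replicate block, each library left out, months as units, a month fit and the anagen libraries alone. Leaving out both libraries of a month was added after seeing the data.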

Additional observations from a re-analysis of the deposited data

Results flagged for a closer look

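Within each season, the reported genes and library measures were searched for a library whose gap to its nearest neighbour took more than 0.625 of the group's range. Of 114 groups of 6, 4 had such a library, where chance gives about 1 in 20. The December female stood apart in shortening days for LOC102176710, at 97.33 TPM, and, on the low side, for RBM3, at 160.53. The November male stood apart for ZNF394 at 6.15, the closest shortening-day value to the lengthening days, and the March female for NR1D1 at 17.99, the highest lengthening-day value. NR1D1's seasonal call was lost without that library, as it was without each other library outside May.

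CIRBP had a catagen-minus-telogen difference that differed from its September-minus-May difference by 1.49 on the log2 scale (limma, adjusted p = 0.0257). CIRBP was the 1 gene flagged among 49 searched for such a difference, and over all genes 854 passed. Muscle genes described above passed too without being flagged: TNNC2 at 4.76, MYLPF at 4.30 and ACTA2 at -1.25 (limma, adjusted p = 0.000455, 0.000455 and 0.022).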

How the results depend on the processing

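The 1420 seasonal genes became 850 after quantile normalization and 4921 in the month fit. They became 3 with month means as units or with the month as a random block. Leaving out both libraries of a month gave 8180 without May, 8 without September, 3 without November, 24 without December, 9 without February and 27 without March. Leaving out 1 library gave 33 to 4068 (replicates 1 and 2 in turn: May 4068 and 3180, September 482 and 65, November 33 and 126, December 511 and 433, February 60 and 601, March 663 and 575). Rescaling without mitochondrial and ribosomal protein genes gave 1472, of which 23.0% were higher in shortening days in place of 38.9%, and moved the median of all genes from -0.04 to -0.10 for season and from -0.003 to -0.10 for September minus May. The 731 genes siding with season became 3 with months as units in either way, 5097 without both May libraries, 8 without September, 3 without November, 24 without December, 9 without February and 27 without March, and 33 to 1418 with 1 library left out. Of the 731, 444 sided again after quantile normalization, 545 after rescaling and 679 with the replicate block.

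With 1 library left out, the 6843 catagen-telogen genes ranged from 4260 (without November replicate 1) to 7816, and without the filter they were 8022. Their split of 3055 higher and 3788 lower turned to 3165 and 3014 after quantile normalization. The 22 September-May genes became 12 with a pseudocount of 0.1 and ranged from 11 (without September replicate 2) to 33, with 12 without May replicate 2 or September replicate 1, and 15 in the anagen libraries alone. The 9 genes shared by both contrasts became 4 after quantile normalization and 4 to 13 with 1 library left out. The 856 genes in the seasonal arrangement ranged from 473 to 965. No gene that passed and was recomputed one by one changed direction, but the larger side of the seasonal split turned in some settings: it was 69 higher and 57 lower without November replicate 2, 32 and 28 without February replicate 1, 17 and 16 without November replicate 1 and, without both libraries of a month, 18 and 6 for December, 5 and 4 for February and 17 and 10 for March.

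Replicate numbers stand for sex. Deviations of same-numbered libraries correlated at -0.255 to 0.442 over 15 pairs of months, above 0.1 in 9. Same-sex libraries thus deviated together in part, and the main fits left the replicate number out. With a replicate block the seasonal count was 1220 and the September-May count 21, TTN no longer passed between September and May nor PRLR and NR1D1 between seasons, and 1 core clock gene in place of 3 was lower in shortening days. Read depth is unknown and each month holds 2 libraries, which limits how firmly any month can be placed.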
